A study of Caenorhabditis elegans with 5 samples.

Results

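The cytochrome P450 family of Caenorhabditis elegans was followed in whole worms at 2 ages, Day 6 of adulthood and L4, the last larval stage. Its members were the features whose symbol has the form cyp, a family number, a subfamily letter and a gene number, together with daf-9, the P450 gene that has kept its dauer name. The rule used names alone and no measured value. It found 80 of 19176 features, on all 6 chromosomes, with 42 on chromosome V, 13 on II, 9 each on IV and X, 6 on III and 1 on I. All animals were wild type N2 at 20 °C on E. coli HT115 that carried the empty RNAi vector L4440, with 2 mM IPTG and carbenicillin in the plates. The 3 Day 6 libraries came from animals that had been moved at L4 to plates with 25 µg/mL FUdR, which blocks the production of offspring, and the 2 L4 libraries from animals taken before that step. Age and FUdR therefore cannot be told apart. Each library was made from pooled whole animals, so fewer cells of a type and less RNA per cell cannot be told apart either.

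Cytochrome P450s are heme enzymes that place oxygen from air into lipids, sterols and foreign compounds, using electrons handed on by a P450 reductase or by cytochrome b5. In worms, many of them sit in the intestine and answer to foreign chemicals, while others have fixed tasks in hormone, fatty acid or eggshell lipid synthesis. By sequence the worm enzymes fall into groups named after their animal relatives: a CYP2-like group (families 14, 22, 23, 33, 34, 35 and 36), a CYP3-like group (13, 25 and 43), a CYP4-like group (29, 31, 32, 37 and 42) and a mitochondrial one (44). Many members lie side by side. There were 11 clusters of neighbours no more than 20000 bp apart, which held 46 of the 80 genes. The largest held 10 genes of the CYP34 and CYP35 families (chromosome V, 3936326 to 3972991, WBcel235), and the next 9 genes of the cyp-13A group (chromosome II, 9779181 to 9807569). Of the 80 members, 75 are annotated as protein coding and 5 (cyp-13A9, cyp-25A5, cyp-29A1, cyp-31A1 and cyp-34A3) as pseudogenes.

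The libraries held between 13043617 and 29247719 counts at Day 6, and 14517986 and 9368922 at L4. L4 replicate 1 stood apart from the others. Its correlation with L4 replicate 2 over log2 levels was r = 0.796, against 0.958 to 0.971 among the Day 6 libraries, and its TMM scaling factor was 0.293, against 1.03 to 1.63 in the other 4. Levels are given as counts per 1000000 counts (CPM) on library sizes after TMM scaling, a correction for a few abundant genes taking up much of a library. A single count was worth 0.235 CPM in L4 replicate 1 and 0.0332 to 0.0662 CPM in the others, so low genes were read least precisely there. P450 genes held 14290, 10654 and 8339 counts in Day 6 replicates 1, 2 and 3, and 654 and 5952 counts in L4 replicates 1 and 2. This was 0.0489%, 0.0817% and 0.0621% of all counts at Day 6, and 0.0045% and 0.0635% at L4. The P450 share of L4 replicate 2 thus lay within the Day 6 range, and that of L4 replicate 1 far below it. These shares of all counts are not TMM-scaled. After scaling, the members summed to 474, 502 and 497 CPM at Day 6, against 154 and 394 CPM at L4. On that measure both L4 libraries lay below the Day 6 libraries, L4 replicate 1 by more. Calls that change when L4 replicate 1 is left out are therefore given both ways.

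At Day 6 the family was led by a few genes. cyp-14A5 alone took 26.9%, 27.8% and 24.0% of the P450 counts in Day 6 replicates 1, 2 and 3, against 2.14% (95% Wilson interval 1.28% to 3.56%) and 3.18% (2.76% to 3.65%) in L4 replicates 1 and 2. The CYP31 genes cyp-31A2, cyp-31A3 and cyp-31A5 together took 20.5%, 17.6% and 21.3% at Day 6, against 6.27% (4.65% to 8.39%) and 1.83% (1.52% to 2.20%) at L4. These shares need no scaling between libraries, and the Wilson intervals cover counting error only. The L4 libraries did not share a make-up. The cyp-35A genes took 5.37%, 4.64% and 6.28% of the P450 counts at Day 6, 6.27% in L4 replicate 1 and 22.5% in L4 replicate 2. cyp-33C8, cyp-33C9, cyp-37A1 and daf-9 together took 11%, 10.4% and 9.55% at Day 6, 58.7% in L4 replicate 1 and 13.4% in L4 replicate 2. Per kilobase of exon, cyp-14A5 ranked first among the P450 genes in all Day 6 libraries, with 81.6, 89.4 and 76.4 CPM per kb, and cyp-31A2 second, with 29.4, 27.9 and 32.6 CPM per kb. The leading gene was cyp-37A1 in L4 replicate 1 (21.3 CPM per kb) and cyp-35A2 in L4 replicate 2 (36.2 CPM per kb).

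**Figure D1:**
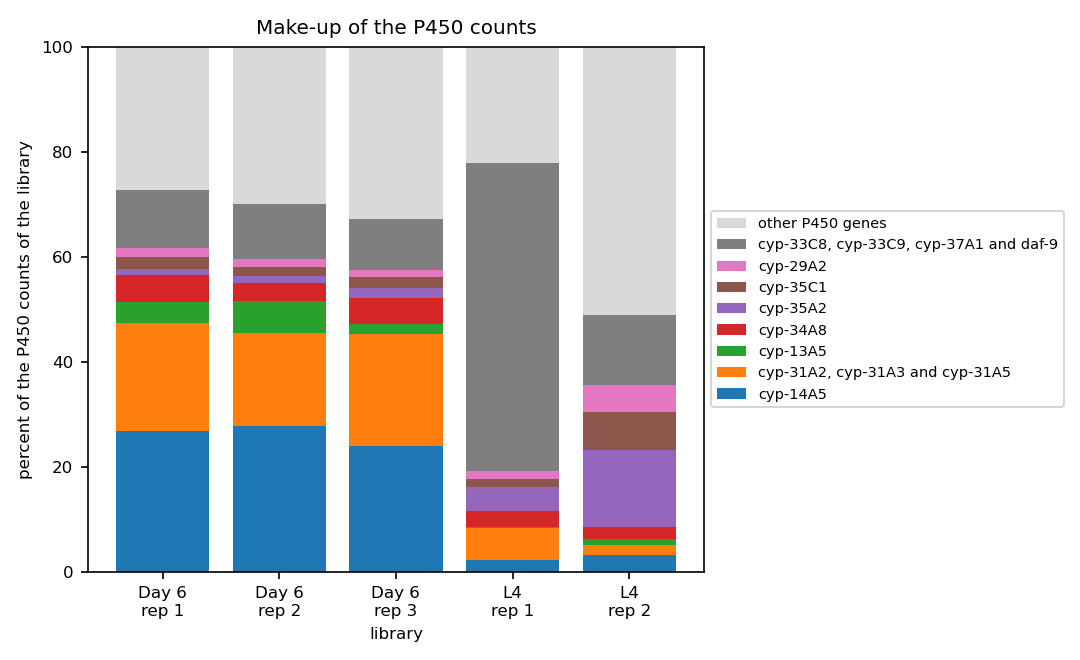
Percent of the P450 counts of each library (vertical axis) held by named genes, for the 3 Day 6 libraries (left) and the 2 L4 libraries (right); light grey is all other members. cyp-14A5 and the 3 CYP31 genes fill the lower part of the Day 6 bars, while cyp-35A2 takes 14.6% of L4 replicate 2 and cyp-33C8, cyp-33C9, cyp-37A1 and daf-9 take 58.7% of L4 replicate 1.

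Of the 80 members, 50 had enough counts to be tested (about 10 counts or more in at least 2 libraries and 15 in all), and 7 of the 50 rose at Day 6 at an adjusted p under 0.05 in edgeR. They were cyp-13B2, cyp-14A5, cyp-29A4, cyp-31A2, cyp-31A3, cyp-31A5 and cyp-36A1. Over all 12758 tested genes 14.3% rose, so the family's count was near the background. No member passed the test as lower at Day 6, while 12.5% of all tested genes did. Among the members, 6 were called lower by DESeq2 (21.7% of all genes) and 0 by voom (12.4%). With median-ratio scaling in place of TMM edgeR called 4 lower (15.7% of all genes), and with upper-quartile scaling 2 (16.1%). The median fitted log2 fold change of the 50 members was 0.40, against 0.08 over all tested genes. Without L4 replicate 1, 59 members could be tested, of which 12 were called higher and 11 lower, with 26.0% and 24.1% of all tested genes as background, and the members' median was -0.21, against 0.07 over all. All 7 genes were among those 12. Without L4 replicate 2, 27 of 56 were called higher and 4 lower, against 36.5% and 24.2% of all genes. In these fits the lone L4 library is assumed to vary like the Day 6 libraries. cyp-13A4 and cyp-14A2, called lower without L4 replicate 1, entered that tested set through L4 replicate 2, where they were high. DESeq2 on all 5 libraries called 11 members higher and 6 lower, against 18.0% and 21.7% of all genes.

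The 3 Day 6 libraries all lay above both L4 libraries in 17 of the 50 tested members, against 35.4% of all tested genes, and all below both in 6, against 23.4%. Both shares count genes by their levels alone, and a member could have entered the tested set through the group where it was higher. The members were instead frequently split by the L4 libraries. In 23 of 50 the Day 6 mean of log2 levels lay above L4 replicate 1 and below L4 replicate 2, a pattern seen in 19.6% of all tested genes, and in 0 of 50 it was the other way round. The members' median difference from the Day 6 mean was -2.37 on the log2 scale in L4 replicate 1 and 0.33 in L4 replicate 2. For the 1139 tested genes with exons as long as those of P450 genes (1543 to 1773 bp) it was -0.87 and 0.03. These log2 differences use CPM plus a pseudocount of 0.114.

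**Figure D2:**
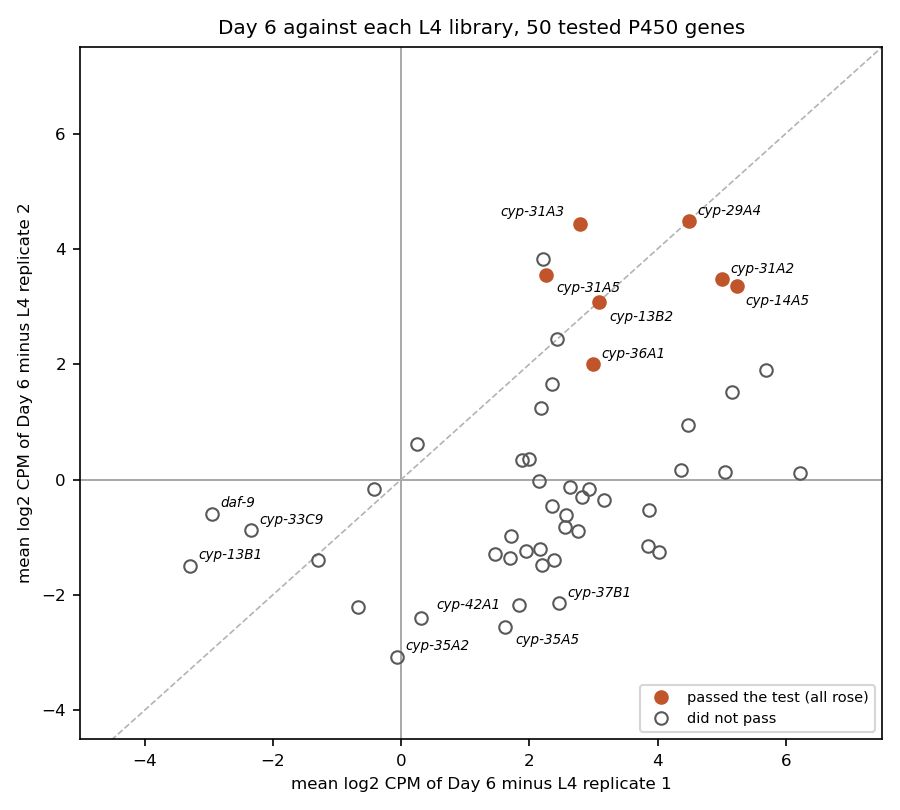
Mean log2 level of the Day 6 libraries minus L4 replicate 1 (horizontal axis) and minus L4 replicate 2 (vertical axis) for the 50 tested members; filled points passed the test, open points did not, and the dashed line marks equal differences. The 7 filled points are above 0 on both axes, while 23 members lie to the right of 0 and below 0.

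cyp-14A5, of the CYP2-like family 14 (chromosome V, 5421018 to 5423282, minus strand), had 127, 140 and 119 CPM in Day 6 replicates 1, 2 and 3, against 3.29 and 12.5 CPM in L4 replicates 1 and 2. The groups were far apart, although the L4 libraries also differed from each other. It rose by 3.99 ± 0.74 on the log2 scale (SE; adjusted p = 0.0101), and by 3.44 without L4 replicate 1 (adjusted p = 0.000187). Among the 12541 tested genes with a known exon length it ranked between 640 and 903 by CPM per kb at Day 6, against 6748 and 4980 in L4 replicates 1 and 2. Its relatives lie on chromosome X (13265041 to 13284197) and were low. cyp-14A1 had 0.166, 1.13 and 0.774 CPM at Day 6, against 0 and 0.926 CPM at L4. cyp-14A2 was not tested with all libraries, and had 0, 6 and 0 counts at Day 6, against 1 and 77 counts in L4 replicates 1 and 2. Without L4 replicate 1 it was tested, with a fitted change of -5.63 on the log2 scale. That change rests on L4 replicate 2 alone, whose counts also brought the gene into the tested set. cyp-14A3 had 4, 12 and 6 counts at Day 6 and 0 in both L4 libraries, and cyp-14A4 had 5 counts in Day 6 replicate 1 and none elsewhere.

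The CYP31 genes hold the family's other large rise. CYP-31A2 and CYP-31A3 act redundantly, with the P450 reductase EMB-8, in making lipids for the permeability barrier of the eggshell. cyp-31A2 (chromosome IV, 11403961 to 11406091, plus strand) had 48.0, 45.5 and 53.2 CPM at Day 6, against 1.41 and 4.3 CPM at L4. It rose by 4.03 ± 0.66 on the log2 scale (adjusted p = 0.00721), and by 3.58 without L4 replicate 1 (adjusted p = 7.26e-05). cyp-31A3 (chromosome IV, 4761049 to 4762885, plus strand) had 27.8, 21.4 and 26.4 CPM at Day 6, against 3.52 and 1.06 CPM at L4. It rose by 3.55 ± 0.71 (adjusted p = 0.0133), and by 4.64 without L4 replicate 1 (adjusted p = 5.46e-05). For both genes every Day 6 library lay above both L4 libraries. The 2 genes are close copies, and how reads that match both were counted is not stated, so their separate levels are uncertain.

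cyp-31A5 (chromosome IV, 13401289 to 13403842, plus strand) had 21.4, 21.2 and 26.3 CPM at Day 6, against 4.70 and 1.85 CPM at L4, and rose by 2.86 ± 0.64 on the log2 scale (adjusted p = 0.0181). Without L4 replicate 1 the rise was 3.70 (adjusted p = 0.000115). Its exons overlap those of Y62E10A.19, on the other strand, by 101 bp, and the strand setting of the counting is not stated. The fourth gene of the family, cyp-31A1, is annotated as a pseudogene and ran the other way. It had 1.96, 2.17 and 3.45 CPM at Day 6, against 3.99 and 11.7 CPM at L4. Its fitted change was -1.66 ± 0.68 (adjusted p = 0.103), and -2.15 without L4 replicate 1 (adjusted p = 0.00349).

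emb-8 itself had 174, 106 and 109 CPM at Day 6, against 38.8 and 73.4 CPM at L4. Its fitted change, 1.21 ± 0.57 on the log2 scale, did not pass (adjusted p = 0.147), and 0 of the 4 electron donor genes (emb-8, cytb-5.1, cytb-5.2 and vem-1) were called by edgeR. cytb-5.1, a cytochrome b5 gene, was at the threshold (-2.05, adjusted p = 0.050) and was called lower with median-ratio or upper-quartile scaling, with the filter at 1 CPM in 2 libraries and by DESeq2, which also called cytb-5.2 lower. Without L4 replicate 1 the change of cytb-5.1 was -0.69 (adjusted p = 0.0570), and without L4 replicate 2 all 4 were called, emb-8 as higher and the others as lower. The list of eggshell lipid barrier genes held 4 others, of which 2 rose and 0 fell. dgtr-1, which encodes an acyltransferase, had 19.7, 15.2 and 13 CPM at Day 6, against 2.82 and 1.13 CPM at L4 (log2 fold change 3.09, adjusted p = 0.0170). perm-1, needed for the same barrier, had 58.0, 28.7 and 44.3 CPM at Day 6, against 2.11 and 2.91 CPM at L4 (log2 fold change 4.09, adjusted p = 0.00588). pod-2 and fasn-1, enzymes of fatty acid synthesis, did not pass. When L4 replicate 1 was left out, pod-2 was called higher too (log2 fold change 1.47, adjusted p = 0.0346), which made 3 of 4. The list's median was 1.71, against 0.08 over all tested genes. dgtr-1 lost its call with the library-name numbers as a block (adjusted p = 0.155) and when any Day 6 library was left out. Markers of germline and oocytes moved alongside: 11 of 13 rose and 0 fell, with 12 rises without L4 replicate 1, 9 and 4 when the title or the library-name numbers were the block, and 5 to 9 when a Day 6 library was left out, and their summed level was 5620, 2950 and 4040 CPM at Day 6, against 506 and 299 CPM at L4. Their part in the rise of the CYP31 genes was not tested.

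**Figure D3:**
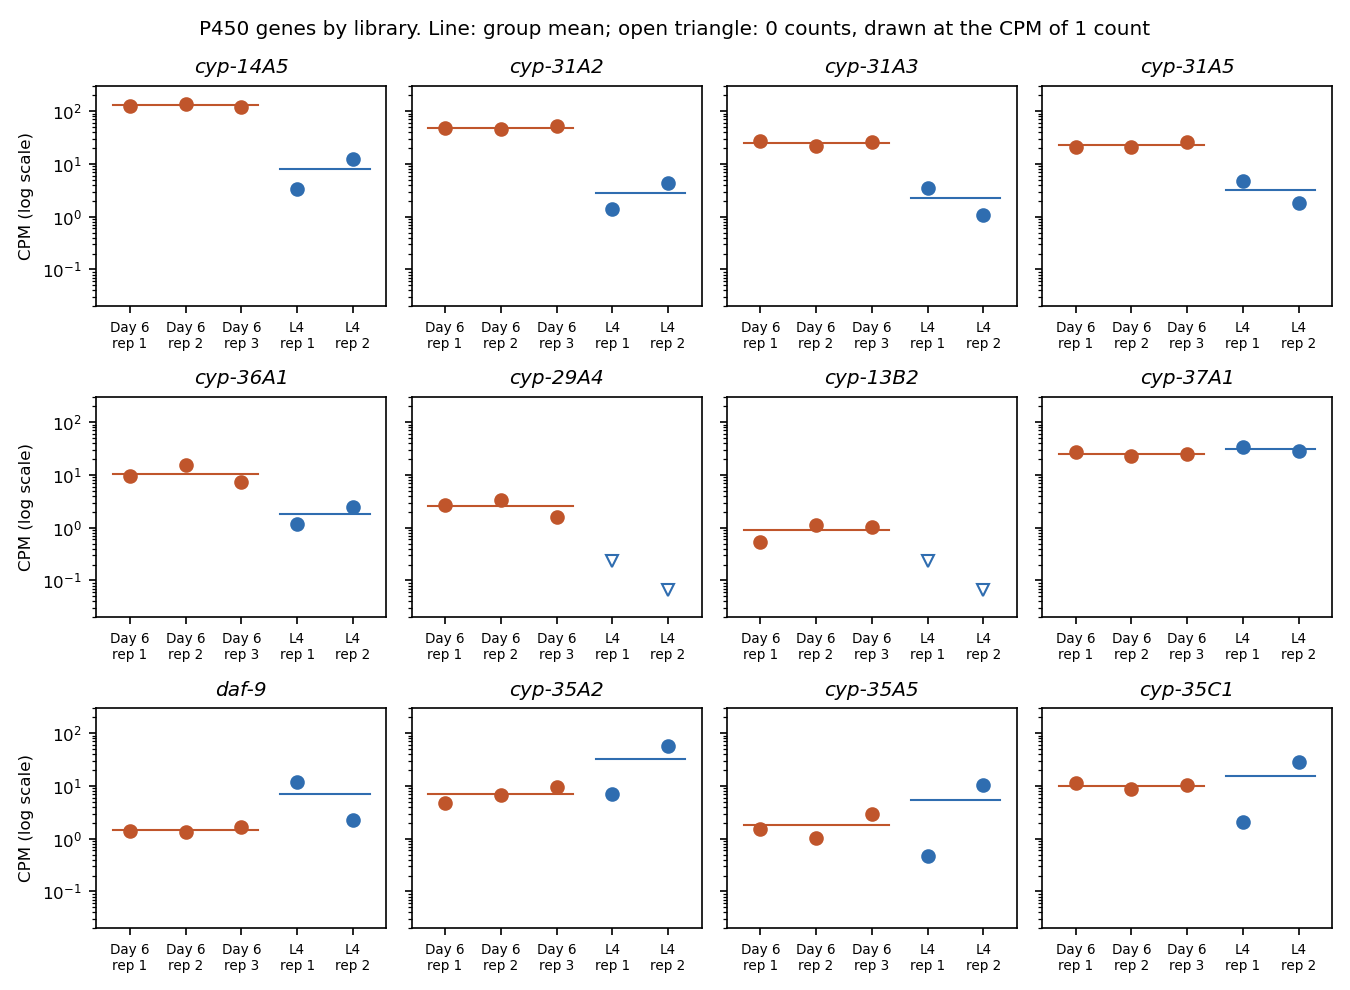
CPM (log axis) of 12 members in the 3 Day 6 libraries (left of each panel) and the 2 L4 libraries (right); points are libraries, lines are group means, and open triangles mark 0 counts, drawn at the level of 1 count. In the 7 genes that rose all Day 6 points lie above both L4 points, cyp-37A1 is at 23.2 to 26.6 CPM at Day 6 against 28.0 and 33.4 CPM at L4, and the L4 points of cyp-35A2 (7.05 and 57.5 CPM) and cyp-35C1 (2.11 and 28.5 CPM) are far apart.

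3 further genes outside families 14 and 31 rose. cyp-36A1, known to act downstream of the oxygen sensor EGL-9 and of HIF-1 (chromosome I, 8341682 to 8346023, minus strand), had 9.49, 15.1 and 7.21 CPM at Day 6, against 1.17 and 2.45 CPM at L4. It rose by 2.49 ± 0.69 on the log2 scale (adjusted p = 0.0342), and by 2.20 without L4 replicate 1 (adjusted p = 0.00857). Its exons share 147 bp with figo-1 on the other strand. egl-9 had 5.38, 7.26 and 6.61 CPM at Day 6, against 4.23 and 6.88 CPM at L4, and hif-1 155, 104 and 96.5 CPM at Day 6, against 262 and 133 CPM at L4. Neither passed the test.

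cyp-29A4, of the CYP4-like group (chromosome V, 9654755 to 9658120, plus strand), had 82, 70 and 27 counts at Day 6 and 0 counts in both L4 libraries. Against a floor of 3 counts over the L4 group it was at least 17-fold higher at Day 6 (adjusted p = 0.0153). cyp-13B2, of the CYP3-like group (chromosome X, 14225573 to 14228785, plus strand), had 16, 24 and 17 counts at Day 6 and 0 in both L4 libraries, and was at least 5.4-fold higher on the same floor (adjusted p = 0.0354). With 0 counts at L4, both genes entered the tested set through their Day 6 counts alone. Higher Day 6 values were thus a condition of their being tested. Leaving out L4 replicate 1 keeps this condition, since L4 replicate 2 also had 0 counts. That fit is therefore no separate check of either rise. cyp-13B2 was not called without L4 replicate 2 (adjusted p = 0.0799).

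Day 6 and L4 libraries that share a replicate number are given as prepared together, but the numbers in the sample titles and in the library names do not match for L4. With the number from the titles as a block, 5 members were called higher, against 6.40% of all tested genes, and 0 lower, against 5.06%. cyp-31A5, cyp-36A1 and cyp-13B2 then lost their calls (adjusted p = 0.0799, 0.110 and 0.158) and cyp-13A5 gained one (adjusted p = 0.0215). With the number from the library names, only cyp-14A5 and cyp-31A2 were called higher (adjusted p = 0.0286 and 0.0170), against 3.23% of all genes, and 0 lower, against 2.81%. Leaving out a Day 6 library lowered the calls over the whole table. Without Day 6 replicate 1 the test called 1 member higher (cyp-31A2), against 2.12% of all genes. Without replicate 2 it called 2 (cyp-14A5 and cyp-31A2), against 3.99%, and without replicate 3 it called 0, against 1.94%.

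Among the members that did not pass with all libraries, 5 were called higher once L4 replicate 1 was left out, namely cyp-13A5, cyp-33C7, cyp-34A2, cyp-34A5 and cyp-34A8. cyp-13A5 was the main gene of its cluster of 9, with 18.7, 30.8 and 9.95 CPM at Day 6, against 0.235 and 4.70 CPM at L4. Its fitted change was 2.89 ± 1.04 on the log2 scale (adjusted p = 0.0729), and 2.17 without L4 replicate 1 (adjusted p = 0.0175). The other tested gene of that cluster, cyp-13A2, had 1.73, 3.02 and 3.22 CPM at Day 6, against 0.705 and 5.16 CPM at L4. The remaining 7 had at most 30 counts in any library. Among them, cyp-13A4 had 30 counts in L4 replicate 2 and 0 in the other 4 libraries, and cyp-13A7, which can be induced by rifampicin, had 4, 1 and 7 counts at Day 6, against 0 and 2 at L4. cyp-13A12, which acts through fatty acid products in the behaviour of worms after loss of oxygen, lies on chromosome III. It had 0.266, 0.566 and 0.715 CPM at Day 6, against 0 and 1.46 CPM at L4. cyp-13B1 ran opposite to cyp-13B2, with 0.232, 0.330 and 0.0596 CPM at Day 6, against 2.82 and 0.728 CPM at L4 (adjusted p = 0.0683).

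Of the 10 CYP34 genes, all on chromosome V, 6 were tested and 0 passed with all libraries. Without L4 replicate 1, a fit with more calls over all genes as well, cyp-34A2, cyp-34A5 and cyp-34A8 were called higher. cyp-34A8 had 24.9, 17.1 and 23.9 CPM at Day 6, against 4.70 and 9.13 CPM at L4. Its fitted change was 1.65 ± 0.56 on the log2 scale (adjusted p = 0.0623), and 1.34 without L4 replicate 1 (adjusted p = 0.0102). cyp-34A2 had 3.98, 3.39 and 4.71 CPM at Day 6, against 0 and 1.32 CPM at L4. cyp-34A5 had 40, 36 and 25 counts at Day 6, against 1 and 0 counts at L4, a ratio of 28.7 with an exact 95% counting interval of 5.04 to 1150. cyp-34A7 had 10, 12 and 11 counts at Day 6 and 0 in both L4 libraries, which is at least 3.13-fold higher (adjusted p = 0.0553). In these 4 genes all Day 6 libraries lay above both L4 libraries, as in 35.4% of all tested genes. cyp-34A5, with 1 and 0 counts at L4, and cyp-34A7, with 0 counts at L4, entered the tested set through their Day 6 counts alone. Higher Day 6 values were thus a condition of their being tested, and without L4 replicate 1 both were compared with a library at 0 counts. In the other tested members the Day 6 range overlapped the L4 range: cyp-34A4, also named dach-1, had 4.25, 6.22 and 4.71 CPM at Day 6, against 0.235 and 7.28 CPM at L4, and cyp-34A9 had 6.31, 7.68 and 12.4 CPM at Day 6, against 0 and 7.81 CPM at L4. cyp-34A4 to cyp-34A10 lie in the cluster of 10 with cyp-35A5, cyp-35B1 and cyp-35B2.

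The cyp-35 genes, known for their strong response to foreign chemicals in the intestine and for effects on fat storage, differed widely between the L4 libraries, as did most members. The median ratio of the higher to the lower L4 library was 7.38 over tested members with counts in both. Of the 50 tested members, 39 were higher in L4 replicate 2 than in L4 replicate 1. cyp-35A2 had 4.85, 6.69 and 9.41 CPM at Day 6, against 7.05 CPM in L4 replicate 1 and 57.5 CPM in L4 replicate 2. Its fitted change was -2.22 ± 0.81 on the log2 scale (adjusted p = 0.0776). It was called without L4 replicate 1 (-2.98, adjusted p = 0.000160) and not without L4 replicate 2 (-0.01, adjusted p = 0.980). cyp-35A5 had 1.53, 1.04 and 2.92 CPM at Day 6, against 0.470 and 10.5 CPM at L4. cyp-35C1 had 11.3, 8.67 and 10.5 CPM at Day 6, against 2.11 and 28.5 CPM at L4. In both, all Day 6 libraries lay between the L4 libraries. Their fitted changes were -2.46 and -1.41 without L4 replicate 1, and 1.94 and 2.27 without L4 replicate 2. That last fit called cyp-35C1 higher.

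The remaining tested genes of the family were near the level of L4 replicate 2. cyp-35A3 had 11.1, 7.73 and 12 CPM at Day 6, against 1.88 and 14 CPM at L4, and cyp-35A4 had 7.87, 7.12 and 6.31 CPM at Day 6, against 0.235 and 6.29 CPM at L4. cyp-35B1, which lies downstream of the transcription factor DAF-16, had 5.61, 5.09 and 4.71 CPM at Day 6, against 0.470 and 6.62 CPM at L4. Of the 7 tested CYP35 genes 0 passed with all libraries, and 3 (cyp-35A2, cyp-35A5 and cyp-35C1) were called lower at Day 6 without L4 replicate 1. Of 10 markers of the intestine, 5 fell and 0 rose, 2 fell with either block, and 1 or 2 fell when a Day 6 library was left out. Their median log2 fold change was -1.63, with -1.88 without L4 replicate 1 and -1.965 without L4 replicate 2. The direction of nhx-2 depended on the L4 library, with 10.5, 9.24 and 10.5 CPM at Day 6, against 4.93 and 51.8 CPM at L4. The summed level of the 10 markers was 711, 592 and 526 CPM at Day 6, against 11800 and 2880 CPM at L4. act-5, an intestinal actin, held 9720 and 1420 CPM of the L4 sum. Leaving it out, the sum was 480, 383 and 333 CPM at Day 6, against 2110 and 1450 CPM at L4. Of the 10 markers, 6 were lower in L4 replicate 1 than in L4 replicate 2, as were cyp-35A2, cyp-35A5 and cyp-35C1, and 4 were higher. Their part in the cyp-35 values was not tested.

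The CYP33 family is the largest, with 18 members, of which 10 were tested and 0 passed. cyp-33C8 had 17, 22.2 and 15.8 CPM at Day 6, against 15.3 and 11.8 CPM at L4. cyp-33C9 had 7.27, 5.37 and 4.94 CPM at Day 6, against 29.6 and 10.7 CPM at L4. Its fitted change was -1.77 ± 0.59 on the log2 scale (adjusted p = 0.0601), and -0.79 without L4 replicate 1 (adjusted p = 0.106). In the cluster of 5 genes from cyp-33C3 to cyp-33C7 (chromosome V, 2236140 to 2252591) neighbours differed in which age had the higher mean level. cyp-33C7 had 4.98, 7.07 and 7.74 CPM at Day 6, against 1.17 and 1.99 CPM at L4 (adjusted p = 0.0565). cyp-33C5 had 0.896, 0.518 and 1.55 CPM at Day 6, against 0.705 and 5.29 CPM at L4 (adjusted p = 0.220). Without L4 replicate 1 the change of cyp-33C7 was 1.80 on the log2 scale (adjusted p = 0.0151) and that of cyp-33C5 was -2.36 (adjusted p = 0.0160). cyp-33E2, which makes eicosanoids from polyunsaturated fatty acids in the pharynx, had 1.29, 2.59 and 2.86 CPM at Day 6, against 0.470 and 5.16 CPM at L4.

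daf-9 encodes the P450 that makes dafachronic acids, the steroid hormones bound by the nuclear receptor DAF-12, and in larvae it is active in the hypodermis and the XXX cells. It had 1.39, 1.32 and 1.67 CPM at Day 6, against 12 and 2.25 CPM in L4 replicates 1 and 2 (chromosome X, 6196927 to 6200823, plus strand). All Day 6 libraries lay below both L4 libraries, but L4 replicate 2 was near them. The fitted change was -2.25 ± 0.81 on the log2 scale (adjusted p = 0.0724), and -0.55 without L4 replicate 1 (adjusted p = 0.503), while DESeq2 called it with all libraries (adjusted p = 0.00967). Of 7 tested genes of the dafachronic acid pathway 1 fell and 0 rose. This was strm-1, a methyltransferase that modifies the sterol substrates, with 0.266, 0.566 and 0.834 CPM at Day 6, against 7.99 and 4.43 CPM at L4 (log2 fold change -3.48, adjusted p = 0.0187). It lost its call with either block (adjusted p = 0.0657 and 0.311) and when any Day 6 library was left out, and kept it without L4 replicate 1 (-2.95, adjusted p = 0.00978). In that last fit 2 genes were called lower, strm-1 and daf-36 (-1.65, adjusted p = 0.00351), and 1 higher, din-1 (0.91, adjusted p = 0.0385). With L4 replicate 2 left out instead, strm-1 and ncr-2 were called lower and daf-36 and ncr-1 higher. The list's median was -0.50, against 0.08 over all tested genes. daf-36, which carries out the first step of the pathway, had 4.42, 5.99 and 6.55 CPM at Day 6, against 1.88 and 18.7 CPM at L4, and daf-12 had 5.44, 5.61 and 9.95 CPM at Day 6, against 3.05 and 7.08 CPM at L4. Of 8 hypodermis markers 4 fell and 1 (lin-26) rose. lin-26 lost its call with either block (adjusted p = 0.167 and 0.338) and when any Day 6 library was left out, and without L4 replicate 1 the counts were 4 lower and 2 higher. The markers had summed levels of 405, 436 and 251 CPM at Day 6, against 2650 and 2390 CPM at L4. dpy-13 held 2030 and 1550 CPM of the L4 sum. Leaving it out, the sum was 402, 428 and 243 CPM at Day 6, against 625 and 839 CPM at L4. Those that fell were dpy-7, rol-6, dpy-13 and bli-1, while elt-3, nhr-23 and col-19 did not pass with all libraries. The part of the markers in the daf-9 values was not tested.

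Other CYP4-like genes were mostly higher in L4 replicate 2. cyp-29A2 had 8.33, 7.92 and 7.33 CPM at Day 6, against 2.35 and 20.4 CPM at L4. It was called lower at Day 6 without L4 replicate 1 (-1.29 on the log2 scale) and higher without L4 replicate 2 (1.75). cyp-37B1 had 3.32, 5.23 and 1.73 CPM at Day 6, against 0.470 and 14.2 CPM at L4, and cyp-42A1 had 1.93, 2.26 and 1.79 CPM at Day 6, against 0.470 and 9.33 CPM at L4. Both were called lower without L4 replicate 1 (-1.95 and -2.14 on the log2 scale). Without L4 replicate 2 both fitted changes were positive, and cyp-37B1 was called higher. cyp-32B1 differed from these in that its L4 libraries agreed, with 3.02, 3.91 and 2.74 CPM at Day 6, against 7.99 and 8.60 CPM at L4. Its fitted change was -1.36 ± 0.55 on the log2 scale (adjusted p = 0.10), and -1.33 without L4 replicate 1 (adjusted p = 0.0281). cyp-29A3, a partner of cyp-33E2 in eicosanoid synthesis, had 1.53, 2.26 and 0.834 CPM at Day 6, against 0.235 and 1.46 CPM at L4. In cyp-37A1 all Day 6 libraries lay a little below both L4 libraries, with 26.6, 23.2 and 25.0 CPM at Day 6, against 33.4 and 28.0 CPM at L4 (adjusted p = 0.633).

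Of the remaining families, cyp-44A1, the single mitochondrial member, had 9.63, 12.1 and 18.2 CPM at Day 6, against 0.470 and 6.62 CPM at L4 (adjusted p = 0.171). Its exons overlap those of npp-24 on the same strand, so reads there could belong to either. cyp-43A1 had 9.63, 8.96 and 10.7 CPM at Day 6, against 2.35 and 7.54 CPM at L4 (adjusted p = 0.291). The 4 tested cyp-25A genes, neighbours on chromosome III (3832591 to 3852080), had 0 to 4 counts in L4 replicate 1. Most members were as low there, with 5 or fewer counts in 32 of the 50 tested. The highest, cyp-25A2, had 6.61, 7.40 and 7.15 CPM at Day 6, against 0.940 and 13.2 CPM at L4.

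**Figure D4:**
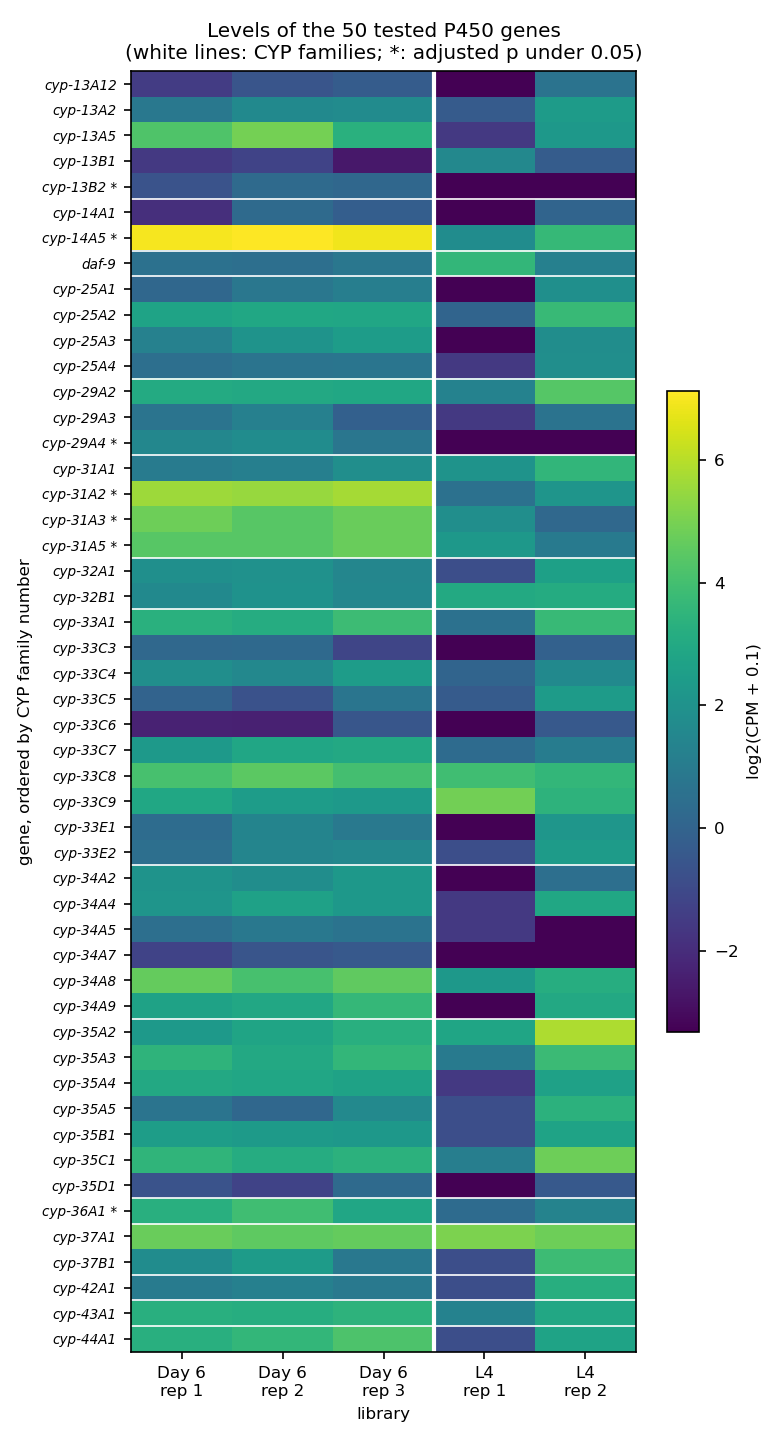
log2(CPM + 0.1) of the 50 tested members (rows, by family number) in the 3 Day 6 libraries (left) and the 2 L4 libraries (right); stars mark the 7 genes that rose. The Day 6 columns resemble each other, L4 replicate 1 is darker for most members, 13 of which had 0 counts there, and L4 replicate 2 is brightest at cyp-35A2.

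The 30 members that were not tested had at most 84 counts over the 5 libraries (cyp-14A2), and 14 members had 10 or fewer. cyp-25A6 had none in any library. Over all 80 members, 16 had no L4 count and 5 had no Day 6 count. Among those 5 were cyp-34A1, with 5 counts in L4 replicate 1 alone, and cyp-33C12, with 4 counts there alone. At these depths a count of 0 does not show that a gene was silent.

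Of 12 genes known to regulate P450 genes in worms, 1 fell and 0 rose. nhr-114, a nuclear receptor, had 3.02, 3.35 and 4.05 CPM at Day 6, against 75.9 and 37.7 CPM at L4 (log2 fold change -4.03, adjusted p = 0.00441). Leaving out L4 replicate 1 gave it a change of -3.37, and nhr-8 was called lower as well (-1.47, adjusted p = 0.00673). With L4 replicate 2 left out instead, 6 were called higher, nhr-8 among them, and 3 lower. The list's median was 0.24, against 0.08 over all tested genes. nhr-46 had 23.5, 21.6 and 24.7 CPM at Day 6, against 34.5 and 16.2 CPM at L4, and ahr-1, the aryl hydrocarbon receptor, had 1.49, 2.07 and 2.62 CPM at Day 6, against 0 and 0.794 CPM at L4. Of 5 tested genes of heme transport, which supplies the cofactor of every P450, 2 fell and 0 rose, with a median of -3.22. hrg-1, a transporter, had 4.48, 9.62 and 3.87 CPM at Day 6, against 136 and 34.8 CPM at L4 (log2 fold change -3.83, adjusted p = 0.0112). hrg-7, a secreted protein that signals heme status between tissues, had 5.74, 14.6 and 5.36 CPM at Day 6, against 604 and 212 CPM at L4 (log2 fold change -5.57, adjusted p = 0.00529). mrp-5, the intestinal heme exporter, had 98.9, 108 and 97.3 CPM at Day 6, against 11.5 and 57.4 CPM at L4 and did not pass. With L4 replicate 1 left out, hrg-1, hrg-4 and hrg-7 were called lower (-2.45, -3.90 and -4.545) and mrp-5 was called higher (0.90). hrg-3 and hrg-6 entered that fit through L4 replicate 2, where they had 18 and 43 counts. At Day 6 hrg-3 had 0, 4 and 0 counts and hrg-6 2, 2 and 0, so lower Day 6 values were largely set by their entry. hrg-6 was called lower, and the fit's median of -3.90 includes both genes. hrg-1 lost its call without Day 6 replicate 1 or 3. Of the 2 epoxide hydrolase genes, which act on P450 products, 0 passed.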

How the data were processed

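RNA-seq counts were analysed for 5 libraries of whole N2 worms, 3 at Day 6 and 2 at L4. The deposited values are whole-number counts per gene: the authors depleted rRNA, made strand-specific cDNA, aligned single reads to the WormBase WS254 release with TopHat2 and counted with featureCounts, and versions, the strand setting and the treatment of multiply matching reads are not given in the sources used here. Value columns left unmapped numbered 0. The study describes its replicates as independent biological ones.

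The comparison of Day 6 with L4 used the quasi-likelihood test of edgeR 4.0.16 (R 4.3.3) on TMM-scaled libraries, after the filterByExpr filter set to 10 counts and 15 in total, with Benjamini-Hochberg adjustment over all 12758 tested genes and calls at an adjusted p under 0.05. The alternatives were DESeq2 1.42.0, voom (limma 3.58.1), scaling by median ratios, by upper quartiles or by library size alone, other filters on low counts, each library left out, a replicate block, and removal of the trend with exon length (lowess, span 0.3). Wilson and exact counting intervals are at 95%. Folds against a group at 0 use a floor of 3 counts over the group.

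Same-numbered libraries were prepared together according to the study, so the replicate number is a pairing by design, but titles and library names number the L4 libraries differently. The deviations from group means correlated at r = 0.344 and 0.268 for the title numbers, and at -0.268 and 0.134 for the library-name numbers. The deviations of the L4 libraries from their mean are equal and opposite, so 0.268 and -0.268 are the same value with its sign turned. These correlations therefore cannot decide between the numberings. Blocked values stand beside the results they change.

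Coordinates and exon lengths came from Ensembl release 115 (WBcel235) for 75 members, and from RefSeq for 5 pseudogenes. cyp-35B3 was not analysed here. Values are given in all libraries for daf-9, for tested members with a known role, and for members called in families with at most 4 calls, and otherwise for called members of the highest level or largest change. Other members were chosen after their values were seen. The members, gene lists and alternatives were chosen with earlier results of these data known.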

Additional observations from a re-analysis of the deposited data

How the results depend on the processing

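The count of members called higher at Day 6 was 7 with all libraries and edgeR. It was 0 with library size only (1.18% of all genes), 11 with DESeq2 (18.0%), 2 with the library-name numbers as a replicate block (3.23%), 5 with the title numbers (6.40%), and 12 with the length trend removed and L4 replicate 1 left out (25.4%). Leaving out a library gave 0 to 27, against 1.94% to 36.5% of all genes, with 27 reached without L4 replicate 2. The count called lower was 0, and became 4 with median-ratio (RLE) normalization (15.7% of all genes), 2 with upper-quartile normalization (16.1%), 6 with DESeq2 (21.7%), 2 without a filter on low counts (10.9%), 6 with the length trend removed (17.3%) and 11 when L4 replicate 1 was left out as well (24.6%). Leaving out a library gave 0 to 11, against 2.38% to 24.2% of all genes. The members' median log2 fold change minus that of all genes was 0.32, with -0.12 for library size only and -0.28 to 1.83 when a library was left out. The scaling moved the median of all genes to -0.14 (median-ratio), -0.22 (upper-quartile) and 0.46 (library size only), against 0.08 with TMM. Changes of sign were followed in 24 named members only. Over all 50 tested members the fitted change was positive in 28 in the main fit, 38 under the title-number block and 39 under the library-name block. Among the 24, it turned positive in cyp-29A2 (0.15), cyp-35C1 (0.23) and cyp-37B1 (0.31) under the title-number block. Under the library-name block it did so in cyp-29A2 (0.062) and cyp-35C1 (0.20). Leaving out a library gave -1.29 to 1.75 for cyp-29A2, -2.36 to 0.48 for cyp-33C5, -2.46 to 1.94 for cyp-35A5, -1.41 to 2.27 for cyp-35C1, -1.95 to 2.86 for cyp-37B1 and -2.14 to 2.08 for cyp-42A1, positive without L4 replicate 2 in each. The cause of these shifts was not tested. All 7 genes called higher were called again under 9 of the 16 alternatives. Low counts in L4 replicate 1, with 5 or fewer in 32 of 50 tested members, limit what it can show.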
